A study of Mus musculus with 4 samples.

Results

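Ribosomal protein genes encode the proteins that are assembled with ribosomal RNA into the large (60S) and small (40S) subunits of the cytosolic ribosome. Genes were taken by name: a symbol that starts with Rpl or Rps followed by a digit, or is Rplp0, Rplp1, Rplp2 or Rpsa, without the kinases named Rps6k and without names holding -ps. This rule found 72 genes among the 9779 genes with usable values, and none of the 72 had a failed estimate. Of the 72, 66 are canonical ribosomal proteins (40 of the large and 26 of the small subunit), 5 are paralog copies (*Rpl7l1*, *Rpl22l1*, *Rpl36al*, *Rpl39l* and *Rps27l*), and 1, *Rps19bp1*, carries the name without being a ribosomal protein. Several ribosomal protein genes, such as *Rpl3*, *Rpl8*, *Rps2* and *Rps19*, were not analysed here.

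All cells were female mouse ESCs of the LF2 line, from strain 129/J, which had been grown on feeder cells and then passaged without them before treatment. For 24 hr, cultures received either PBS or L-ascorbic acid (AA, 50 μg/ml), and either DMSO or GSK-J4 (10 μM). GSK-J4 blocks the H3K27 demethylases Utx and Jmjd3, and AA is a reducing cofactor of this enzyme class. The authors report that GSK-J4 can also inhibit other histone demethylases, with raised H3K4me3 at the induced genes they tested. PBS and DMSO are the vehicles. The 4 conditions are therefore PBS+DMSO, PBS+GSK-J4, AA+DMSO and AA+GSK-J4. There was 1 RNA-Seq library for each, from a single cell line, so no value has a replicate error and no test was run. The GSK-J4 comparisons without AA and with AA share no library with each other, but each AA comparison uses the same libraries as they do.

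Ribosomal protein mRNAs are among the most abundant messages of a growing cell, and most of the proteins are needed in equal numbers in each ribosome. Most of these mRNAs begin with a C followed by a run of pyrimidines, the 5′ TOP motif, through which the mTORC1 pathway and the RNA-binding protein Larp1 control their translation and stability. In stem cells, ribosome output is high, and some ribosomal proteins, such as Rpl5 and Rpl11, also bind Mdm2 when ribosome assembly is disturbed.

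Values are FPKM, which are scaled by transcript length and by the mapped fragments of a library, so that levels can be compared between genes. Where 4 FPKM values of a gene are given in a row, they are for PBS+DMSO (vehicle), PBS+GSK-J4, AA+DMSO and AA+GSK-J4, in that order, and a pair of log2 ratios gives the comparison without AA and then the one with AA. Log2 ratios are of FPKM + 1. The 72 genes all had an FPKM of at least 1 in every library. Read counts are not in the tables, so depth is unknown. The summed FPKM of all genes ranged from 271205 to 360621 and was lower in both GSK-J4 libraries. In these bulk RNA samples, fewer cells of a type and less RNA per cell cannot be told apart. Of 10 ESC markers, 9 had a value, with *Pou5f1* between 479.7 and 867 FPKM, and all 9 had a negative log2 ratio in both GSK-J4 comparisons. Negative ratios were also common elsewhere, at 63.0% of all genes without AA and 62.2% with AA. Among the genes outside the 72 with a mean of at least 100 FPKM, the shares were 91.8% and 89.9%. Of 10 feeder fibroblast markers, 4 had a value, and none exceeded 4.86 FPKM.

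The start sites of the genes at both ends of the response to GSK-J4 are shown first, because the 5′ TOP tract lies there. Each line gives 30 bases before and 30 bases from the RefSeq start on the gene's strand, 5′ to 3′ (build GRCm38.p6, the NCBI name of mm10). Capitals mark runs of at least 7 bases that are all C or T. The 4 genes with the least negative mean log2 ratio, among canonical members with a single listed start, came from chr3:90213619-90213678 (*Rps27*, minus strand), chr7:45128716-45128775 (*Rpl13a*, minus), chr10:23787180-23787239 (*Rps12*, minus) and chr7:99483680-99483739 (*Rps3*, minus).
Rps27: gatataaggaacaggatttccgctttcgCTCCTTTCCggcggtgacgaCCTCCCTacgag
Rpl13a: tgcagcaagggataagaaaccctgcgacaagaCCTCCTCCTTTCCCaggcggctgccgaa
Rps12: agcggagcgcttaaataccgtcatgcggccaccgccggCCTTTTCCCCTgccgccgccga
Rps3: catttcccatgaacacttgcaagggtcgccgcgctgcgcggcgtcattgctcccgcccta

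The 3 with the most negative ratios came from chr11:101442215-101442274 (*Rpl27*, plus strand), chr16:55966245-55966304 (*Rpl24*, plus) and chr4:136053364-136053423 (*Rpl11*, minus).
Rpl27: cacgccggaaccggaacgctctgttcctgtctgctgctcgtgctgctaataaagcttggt
Rpl24: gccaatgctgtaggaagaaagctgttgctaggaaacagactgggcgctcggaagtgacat
Rpl11: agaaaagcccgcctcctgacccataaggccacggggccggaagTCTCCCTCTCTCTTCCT

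The 4 paralog copies with a single listed start came from chr17:46782627-46782686 (*Rpl7l1*, minus strand), chr3:28805478-28805537 (*Rpl22l1*, plus), chr12:69184038-69184097 (*Rpl36al*, minus) and chr16:10170198-10170257 (*Rpl39l*, plus).
Rpl7l1: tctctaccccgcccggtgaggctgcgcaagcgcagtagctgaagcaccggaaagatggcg
Rpl22l1: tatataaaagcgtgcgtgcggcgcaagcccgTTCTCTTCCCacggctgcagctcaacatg
Rpl36al: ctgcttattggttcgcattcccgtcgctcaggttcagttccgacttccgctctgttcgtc
Rpl39l: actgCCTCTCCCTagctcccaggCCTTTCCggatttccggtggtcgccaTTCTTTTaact

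The longest run was 14 bases in *Rpl13a*, at least 17 in *Rpl11*, where it reached the end of the window, and 9 in *Rps27*. *Rps3*, *Rpl27* and *Rpl24* had no run of 7. Runs were counted anywhere in the 60 bases, also before the start, as in *Rpl39l* from base -26. A tract here is therefore not always a 5′ TOP motif. RefSeq windows matched 50 of the 66 canonical members, and 34 of these 50 (68%) held a run of at least 7 pyrimidines, read on the gene's strand only, against 34.3% of the 7495 matched genes of the tables and 37.4% of all 27025 genes in RefSeq's table. The letters CGGAAG, the core of ETS-factor sites, stood on either strand of the 300 bases around the start in 34 of the 50 genes (68%), against 36.7% of the matched genes and 18.8% of all genes. A listed start that lies upstream of the true one would hide a tract. The members with and without a tract overlapped in their response. Without AA, the median log2 ratio was -0.21 for the 34 genes with a tract and -0.25 for the 16 without, and with AA it was -0.19 and -0.17.

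In the vehicle library, the 66 canonical members had a median level of 1111 FPKM, and the 72 genes together made up 21.3% of the FPKM of all genes. Among the 50 genes with the highest level in PBS+DMSO, 34 were members. *Rps18*, a protein of the 40S head, was highest, at 3143, 2779, 3052 and 2844 FPKM. It was followed in mean level by *Rpl13*, *Rplp0*, *Rps15*, *Rps29* and *Rps21*, which lay between 1668 and 2831 FPKM in all libraries. With 1 library each, neighbours in this order cannot be separated by a spread.

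At the other end, 64 of the 66 canonical members stayed at 100 FPKM or above in every library, and the exceptions were *Rpl39* and *Rps20*. *Rpl39*, a small protein of the peptide exit tunnel, measured 36.8, 32.6, 31.9 and 28.9 FPKM. *Rps20*, of the 40S head, measured 5.48, 5.27, 5.59 and 5.495 FPKM. *Rps20* was thus far below *Rps18*, although each ribosome holds both proteins in equal number. The GENCODE transcript taken for *Rps20* has 3706 bases, the longest of the 72 genes, whose median was 849 bases. FPKM is divided by transcript length, and the part of an annotated length in this low level was not tested. The next lowest levels belonged to *Rpl39l*, *Rps19bp1*, *Rpl7l1* and *Rpl22l1*, none of which is canonical.

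Many ribosomal protein mRNAs have processed copies elsewhere in the genome, and reads from such copies cannot be assigned with certainty. In 70 of the 72 genes, at least one 50-base word of the GENCODE transcript also occurred in the transcript of another gene, and in 34 of them at least 50% of the words did. The share was 98.6% for *Rps27*, 86.7% for *Rps18*, 16.5% for *Rpl39* and 7.57% for *Rps20* (277 of the 3657 words of its long transcript). It was 0% for *Rpl39l* and *Rps19bp1*. The read length is not given, and the part of shared sequence in the levels was not tested.

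**Figure D1:**
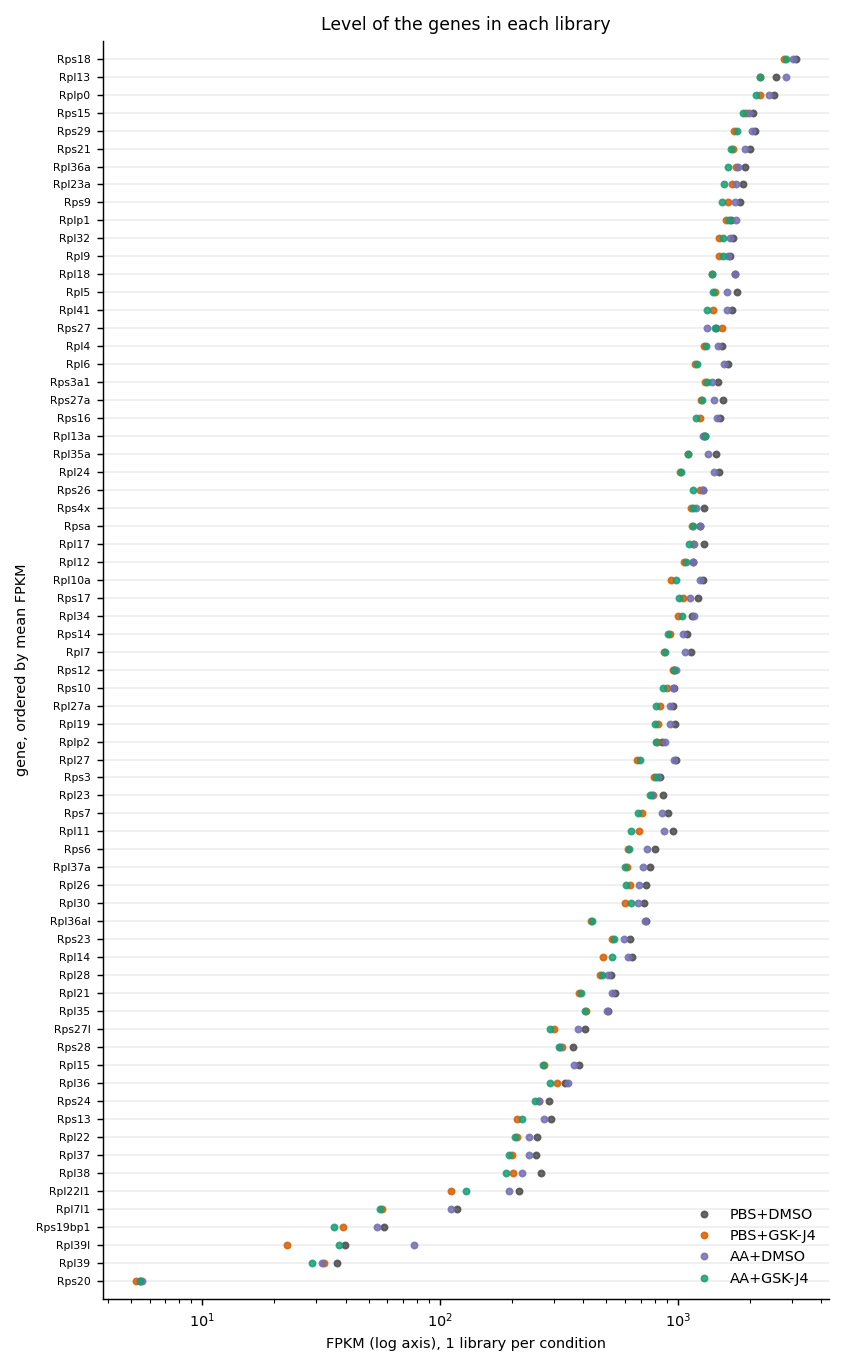
FPKM of 69 of the 72 genes (rows, ordered by mean level) in the 4 libraries (colours), on a log axis. The canonical genes other than *Rpl39* and *Rps20* sat at 100 FPKM or above, up to 3143 FPKM for *Rps18*, and Spearman's rho over all 66 canonical genes between the levels in GSK-J4 and DMSO libraries was 0.983 without AA and 0.987 with AA.

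The order of the 66 canonical genes hardly differed between libraries. Across these genes, which share the same libraries and are not replicates, Spearman's rho between PBS+DMSO and PBS+GSK-J4 levels was 0.983, and between AA+DMSO and AA+GSK-J4 it was 0.987.

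The first question was how the ribosomal protein mRNAs responded to GSK-J4 in cells without AA. The summed FPKM of the 72 genes was 76907 with vehicle and 65462 with GSK-J4, so that it decreased by 14.9%, while the sum of all other genes decreased by 25.9%, from 283714 to 210113. Their share of all FPKM was therefore 23.8% with GSK-J4 against 21.3% without. On the deposited scale, 71 of the 72 genes (63% of all 9196 genes tested) had a log2 ratio under 0 with a median of -0.24, but with all libraries brought to one total only 17 did and the median was 0.15. The median of all genes was itself -0.17, so that the members lay 0.06 below it, but when only genes that reached 5 FPKM were tested they lay 0.05 above. Only 4 of the 72 genes were at least 1.5-fold lower, against 19.3% of all genes, and 1 was at least 2-fold lower, against 3.5%. No member was at least 1.5-fold higher, against 11.6% of all genes.

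With AA the picture was similar. The sum was 74052 FPKM with AA alone and 64976 with AA and GSK-J4, so that it decreased by 12.3%, and the sum of all other genes decreased by 23.1%. The share of all FPKM was 21.6% and 24.0% in these libraries. The log2 ratio was under 0 in 70 of 72 genes (62.2% of the 9139 genes tested) with a median of -0.19 on the deposited scale, but in 13 of 72 with a median of 0.15 when the libraries were scaled to the same total. At least 1.5-fold lower were 5 genes (17.8% of all genes), at least 2-fold lower 1 gene (3.38%), and at least 1.5-fold higher none (10.1%).

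Other abundant genes gave another background, because log2 ratios under GSK-J4 were lower for more abundant mRNAs (Spearman's rho between mean level and ratio was -0.44 without AA and -0.41 with AA over 8972 genes, as a description). The 415 other genes with a mean of at least 100 FPKM had a median log2 ratio of -0.66 without AA and -0.62 with AA, and 60.2% and 53.7% of them were at least 1.5-fold lower. Their median level was 203 FPKM with vehicle, against 1138 FPKM for the 64 canonical members above the same limit. The 36 other genes with a mean of at least 500 FPKM, closer in level with a median of 997 FPKM, had medians of -0.68 and -0.73, and 55.6% and 61.1% were at least 1.5-fold lower. The 64 canonical members had medians of -0.23 and -0.18, and 0 of 64 were 1.5-fold lower in either comparison. Ribosomal protein mRNAs are short, with a median of 869 bases for the canonical members. Among the other abundant genes, the 91 with a transcript of up to 1000 bases had medians of -0.59 and -0.59. Their median level was only 208 FPKM with vehicle, so no group here matched the members in both length and level. The distance between the median of the members and that of the other abundant genes was 0.41 to 0.44 on the log2 scale over both GSK-J4 comparisons and all scalings, filters and pseudocounts tried. Scaling a library shifts both groups almost alike, and the filters left both medians unchanged. The narrow range was therefore largely fixed in advance and is no measure of error.

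**Figure D2:**
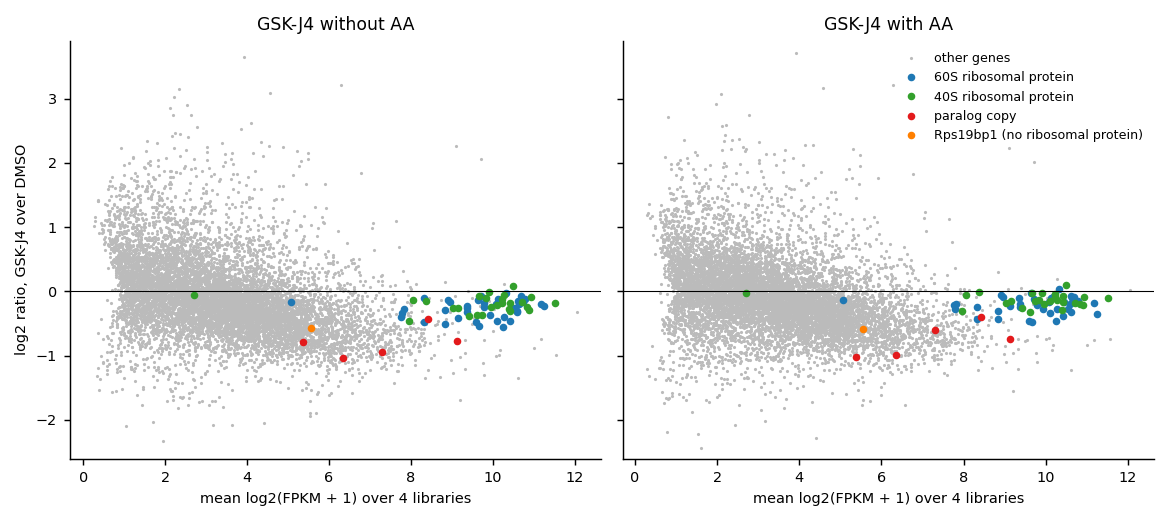
Log2 ratio of GSK-J4 over DMSO (y) against mean log2(FPKM + 1) over the 4 libraries (x), without AA (left) and with AA (right), for each gene tested (grey) and for the 72 genes by class (colours). On the deposited scale the canonical members lay between -0.55 and 0.11, with medians of -0.22 and -0.17 beside -0.66 and -0.62 for other genes of at least 100 FPKM, and the median of all 72 genes was 0.15 in both panels when libraries were scaled to the same total.

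Within the canonical set, every gene stayed within 1.5-fold. The largest decreases were in the large subunit. *Rpl24*, at the interface with the 40S subunit, had 1489, 1016, 1415 and 1029 FPKM, with log2 ratios of -0.55 and -0.46. *Rpl27* had 979, 674, 959.7 and 688 FPKM, with ratios of -0.54 and -0.48. In both genes the GSK-J4 libraries lay below both DMSO libraries.

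*Rpl11*, *Rpl15*, *Rpl21* and *Rpl6* followed, so that all 6 genes with a mean log2 ratio of -0.4 or lower belonged to the 60S subunit. Of all 66 canonical genes, 40 are of the 60S and 26 of the 40S subunit, and the counts below are to be read beside this. Between -0.4 and -0.3 lay 10 genes, 7 of the large subunit (*Rpl7*, *Rpl10a*, *Rpl14*, *Rpl18*, *Rpl35a*, *Rpl37* and *Rpl38*) and 3 of the small (*Rps6*, *Rps7* and *Rps13*). Among the 16 genes between -0.3 and -0.2 were *Rpl4*, *Rpl5*, *Rpl13*, *Rpl19*, *Rpl22*, *Rpl26*, *Rpl41*, *Rps16*, *Rps27a* and *Rps29*. A further 22 genes lay between -0.2 and -0.1. The last 12, above -0.1, included *Rpl13a*, *Rpl23*, *Rplp1*, *Rplp2*, *Rps3*, *Rps12*, *Rps15*, *Rps20* and *Rps27*, and 7 of the 12 are of the small subunit. The medians of the subunits were -0.25 for 60S and -0.18 for 40S without AA and -0.20 and -0.14 with AA, and the ranges of both subunits overlapped.

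*Rps27*, a zinc-finger protein of the 40S subunit, was on the deposited scale the only canonical member with a positive log2 ratio in both comparisons. It measured 1445, 1535, 1326 and 1429 FPKM, giving ratios of 0.09 and 0.11. This sign did not set it apart after scaling to the same total, where only 17 and 13 of the 72 members were under 0. *Rpl13a*, which is also a component of an interferon-induced translational silencing complex, measured 1296, 1279, 1267 and 1295 FPKM, with ratios of -0.02 and 0.03. *Rps12* had ratios of -0.02 and -0.03, *Rps3* of -0.08 and -0.03, and *Rpl23* of -0.13 and -0.02. These values were small beside the differences seen between libraries in *Rpl24* and *Rpl27*.

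Genes were next read by their place in the ribosome. The stalk, formed by *Rplp0*, *Rplp1*, *Rplp2* and *Rpl12* at the base where elongation factors land, was among the sets with the smallest ratios. *Rplp1* measured 1669, 1587, 1752 and 1644 FPKM. Without AA the 4 genes ranged from -0.20 (*Rplp0*) to -0.07, and with AA the range was -0.19 to -0.09. A list of 40S head and mRNA entry genes, which does not hold every protein of the head, had 7 genes with a value. These (*Rps3*, *Rps9*, *Rps10*, *Rps12*, *Rps20*, *Rps28* and *Rpsa*) had medians of -0.10 and -0.03, and the lowest value was -0.17. Outside the list, the head proteins *Rps18*, *Rps29* and *Rps16* had ratios of -0.18 and -0.10, -0.30 and -0.21, and -0.28 and -0.29.

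The 5S RNP, in which *Rpl5* and *Rpl11* travel with 5S rRNA, was read together with *Rpl23*, the other Mdm2-binding protein of the list. *Rpl11* measured 948, 682, 874 and 632 FPKM, with ratios of -0.47 and -0.47. *Rpl5* had ratios of -0.31 and -0.20. *Rpl11* was thus among the 6 most negative canonical genes, and *Rpl23* among the 12 with a mean ratio above -0.1.

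For the polypeptide exit tunnel, 7 of 8 listed genes had a value (*Rpl4*, *Rpl17*, *Rpl19*, *Rpl23a*, *Rpl26*, *Rpl35* and *Rpl39*). All 7 were negative in both comparisons on the deposited scale, with medians of -0.22 and -0.16 and a lowest value of -0.30. Over all members on that scale, 71 of 72 were negative without AA and 70 of 72 with AA. Of the ribosomal proteins made as ubiquitin fusions, *Rps27a* had ratios of -0.31 and -0.16. *Fau*, which the name rule does not reach, had -0.23 and -0.20. *Gnb2l1*, the scaffold protein Rack1 of the 40S head, had -0.14 and -0.06. Diamond-Blackfan anaemia is a disease of red cell production caused by loss of a ribosomal protein gene copy. A list of 9 genes mutated in it, which does not hold every such gene, had 8 with a value. Their medians were -0.26 and -0.17. None of these sets held a gene past 1.5-fold, and neither did the canonical members as a whole, so this is no trait of the sets.

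The 3 X-linked genes, *Rpl36a*, *Rpl39* and *Rps4x*, are of interest in a female cell line. *Rps4x* measured 1282, 1137, 1195 and 1157 FPKM. *Rpl36a* measured 1905, 1749, 1789 and 1619.8 FPKM. Their GSK-J4 ratios, from -0.17 to -0.05, lay inside the range of the autosomal canonical members.

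On the deposited scale, 4 paralog copies and no canonical member passed 1.5-fold in both comparisons. At least 1.5-fold lower were 19.3% of all genes without AA and 17.8% with AA. Among the 415 other abundant genes, the shares were 60.2% and 53.7%. With all libraries brought to one total, *Rpl7l1* still passed in both (-0.65 and -0.65) and *Rpl39l* with AA only (-0.41 and -0.70), whereas *Rpl22l1* (-0.56 and -0.26) and *Rpl36al* (-0.38 and -0.41) passed in neither. *Rpl7l1*, a homolog of *Rpl7* that acts in 60S assembly, measured 118, 57.2, 111 and 55.8 FPKM and so fell in both comparisons (-1.03 and -0.98). *Rpl36al*, a retrotransposed copy of *Rpl36a*, fell with GSK-J4, at 734, 429.6, 728 and 434 FPKM (-0.77 and -0.74). *Rpl22l1*, which can replace *Rpl22* in the ribosome, fell likewise, at 215, 111, 195 and 128 FPKM (-0.95 and -0.60). *Rpl39l*, best known from testis and stem cells, measured 39.8, 22.7, 77.5 and 37.7 FPKM (-0.79 and -1.02). In all 4 genes the value with GSK-J4 was below its matched DMSO library in both comparisons.

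The last copy, *Rps27l*, was below the threshold. It measured 405, 300.3, 380.3 and 289.7 FPKM, ratios of -0.43 and -0.39. *Rps27l* is known as a p53 target gene in human cells. *Rps19bp1*, which encodes a nucleolar Rps19-binding and Sirt1-regulating protein, had ratios of -0.57 and -0.59 and passed 1.5-fold only with AA.

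Each copy was then set against its canonical partner in the same library, a ratio that no scaling of a library can move. The level of *Rpl36al* was 38.5% of that of *Rpl36a* with vehicle and 24.6% with GSK-J4, and 40.7% and 26.8% in the AA libraries. For *Rpl22l1* against *Rpl22*, the shares were 84.4% and 53.0% without AA and 82.4% and 62.0% with AA. For *Rpl7l1* against *Rpl7* they were 10.4% and 6.56%, then 10.4% and 6.33%. In every pair the share was lower with GSK-J4, both without and with AA.

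For *Rps27l* against *Rps27* the shares were 28.1% and 19.6% without AA and 28.7% and 20.3% with AA. *Rpl39l* was above its partner with vehicle, at 108% of *Rpl39*, and below it with GSK-J4 alone, at 69.6%. In the AA libraries it stood at 243% and 130%. Between the copies, 65.6% of the 50-base words of *Rpl22l1*, 24.9% of *Rpl36al*, 22.4% of *Rps27l*, 9.19% of *Rpl7l1* and none of *Rpl39l* were shared with another gene, and 85.5% of *Rpl36a*. The part of shared sequence in the change of the pairs was not tested.

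**Figure D3:**
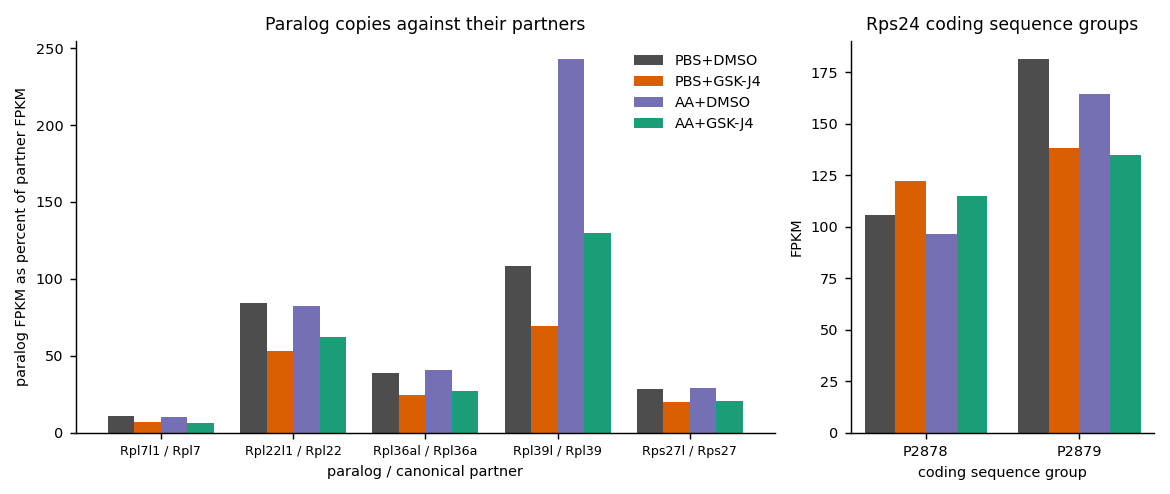
Left, FPKM of each paralog copy as a percentage of its canonical partner (y) for 5 pairs (x) in the 4 libraries (bars, 1 library each). Right, FPKM of the coding sequence groups P2878 and P2879 of *Rps24*. Both GSK-J4 bars were below their DMSO bars in all 5 pairs, and in *Rps24* one group was higher and the other lower with GSK-J4.

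*Rps24* was the only member with more than 1 coding sequence group, that is, transcripts that share one coding sequence. Alternative splicing of its last coding exons gives proteins that differ by a few residues at the C terminus. The tables do not say which of these proteins a group encodes. Its sum was almost level, at 287, 260.4, 260.5 and 249 FPKM. The groups moved in opposite directions beneath this sum and came closer in level. Group P2878 measured 106, 122, 96.3 and 115 FPKM, higher with GSK-J4 in both comparisons. Group P2879 measured 181, 138, 164 and 135 FPKM, lower in both.

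The share of P2878 was therefore 36.8%, 47.0%, 37.0% and 46.0% in the same order. This was a gain of 10.1 and 9.01 percentage points with GSK-J4, while AA moved the share by 0.167 and -0.967 points. Over the 59 genes with more than 1 group and a sum of at least 50 FPKM in every library, 9 (15.3%) had a group whose share moved by at least 5 points in the same direction in both GSK-J4 comparisons, *Rps24* among them. The split of reads between groups of one gene is an estimate, whose error is not known here.

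AA alone had small values in these genes. In cells without GSK-J4, the median log2 ratio of AA+DMSO over PBS+DMSO was -0.07 and 61 of 72 genes were under 0 (62.4% of the 8843 genes tested), whereas after scaling to the same total 32 were under 0 and the median was 0.01. No member was at least 1.5-fold lower (2.22% of all genes) and 1 was at least 1.5-fold higher (2.09%). In GSK-J4-treated cells, the median of AA+GSK-J4 over PBS+GSK-J4 was -0.01 on the deposited scale and 0.02 after scaling to the same total, with 38 of 72 genes (55.4% of the 9180 tested) and 31 of 72 under 0. Again none was at least 1.5-fold lower (2.54%) and 1 was higher (1.71%).

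That gene was *Rpl39l* in both cases. It rose from 39.8 to 77.5 FPKM in DMSO-treated cells and from 22.7 to 37.7 in GSK-J4-treated cells, log2 ratios of 0.94 and 0.71. Its partner *Rpl39* had -0.20 and -0.16, the lowest mean of any member. All 66 canonical genes lay between -0.27 (*Rpl38*) and 0.13 (*Rpl13*) without GSK-J4 and between -0.16 (*Rpl39*) and 0.13 (*Rpl14*) with it. *Rps28* had -0.19 and -0.05, and *Rplp1* had 0.07 and 0.05. *Rpl39l* thus stood highest with AA alone, at 77.5 FPKM, and lowest with GSK-J4 alone, at 22.7 FPKM, while PBS+DMSO and AA+GSK-J4 gave 39.8 and 37.7.

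The GSK-J4 log2 ratios with and without AA were compared gene by gene. Since the comparisons share no library, this shows how closely single values recurred, although AA also differs between them. The ratio with AA was higher by a median of 0.05 on the log2 scale over the 72 genes and of 0.03 over all 8972 genes tested in both. The SD of the difference was 0.08 over the members, 0.13 over the 415 other abundant genes and 0.33 over all genes. Pearson's r between the comparisons was 0.92 over the 72 genes and 0.87 over the 66 canonical ones, as a description over genes. It was 0.97 over the 415 other abundant genes and 0.84 over all genes. The members thus had a smaller SD than the other abundant genes, but not a higher r.

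The largest differences were in the paralog copies *Rpl22l1* (0.35) and *Rpl39l* (-0.24). The smallest were in *Rpl18*, *Rps9* and *Rpl35*, each within 0.01. For *Rpl18*, the values were 1736 and 1392 FPKM without AA and 1741 and 1392 with AA. The ratios of these 3 genes were -0.32, -0.17 and -0.30 in both comparisons. They were picked for this closeness, so it does not show how well other members recurred.

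**Figure D4:**
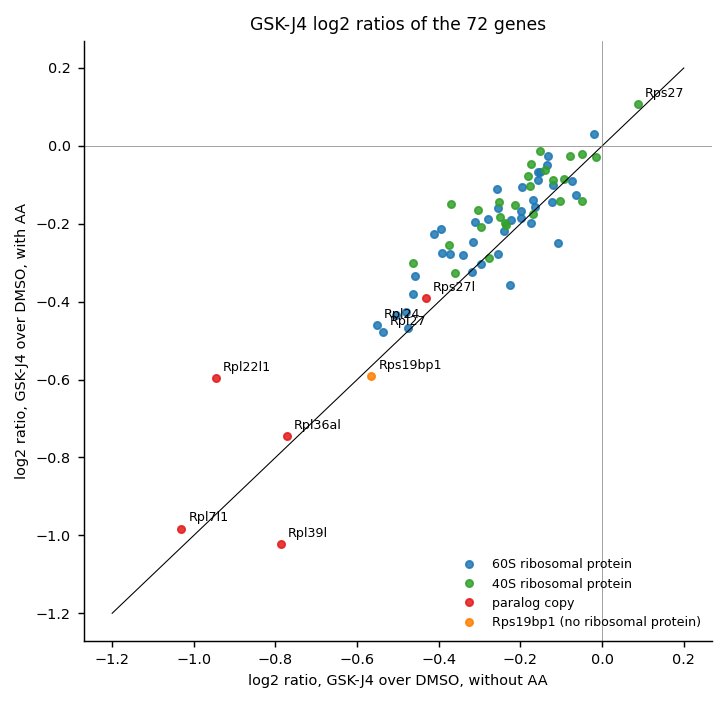
Log2 ratio of GSK-J4 over DMSO without AA (x) and with AA (y) for each of the 72 genes, coloured by class, with the line of equal ratios. On the deposited scale 4 of the 5 paralog copies lay below the canonical genes, between -1.03 and -0.60. Other genes of at least 100 FPKM, not drawn, had medians of -0.66 and -0.62. The canonical genes ran along the line from about -0.55 to 0.11. After scaling to the same total, 17 and 13 of the 72 genes were under 0 without and with AA.

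Lists of related genes placed these values among other parts of the translation machinery. Their counts are to be read beside the 19.3% and 17.8% of all genes, and the 60.2% and 53.7% of the 415 other abundant genes, that were at least 1.5-fold lower without and with AA. The 14 other mRNAs with a TOP motif that encode no ribosomal protein and have a usable value had medians of -0.35 without AA and -0.14 with AA, and 5 and 4 of them (35.7% and 28.6%) were at least 1.5-fold lower. *Eef2*, the translocation factor, measured 1203, 1303, 1159 and 1323 FPKM. *Eef1d*, an exchange-factor subunit, fell, at 243, 112, 238 and 114 FPKM, as did *Npm1*, the nucleolar chaperone, with ratios of -0.98 and -0.73.

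Genes needed to build ribosomes had lower medians than the ribosomal proteins. Of 23 ribosome biogenesis genes with a usable value, 17 and 18 (73.9% and 78.3%) were at least 1.5-fold lower and none was higher, with medians of -0.89 and -0.76. *Nolc1*, a nucleolar phosphoprotein, fell, at 165, 70.7, 148 and 67.5 FPKM. *Bop1*, of the complex that processes the large-subunit rRNA, had log2 ratios of -1.10 and -1.03. Of 11 escorts and importers that guard ribosomal proteins and carry them into the nucleus, 10 and 8 (90.9% and 72.7%) were at least 1.5-fold lower, with medians of -0.85 and -0.70. *Kpnb1*, importin beta, had -1.34 and -1.07, and *Grwd1*, the escort of Rpl3, had -0.93 and -0.83.

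Of 32 translation factors, 20 and 16 (62.5% and 50%) were at least 1.5-fold lower, with medians of -0.71 and -0.61, close to the shares and medians of the other abundant genes. *Eif4e*, the cap-binding protein, had -1.15 and -0.98, and *Eif4a1*, the initiation helicase, had -1.12 and -0.96. The 66 mitochondrial ribosomal protein genes, which serve the separate ribosome of that organelle, had medians of -0.54 and -0.55, with 29 genes (43.9%) at least 1.5-fold lower in each comparison. The 33 proteasome genes had medians of -0.86 and -0.80, with 28 and 25 (84.8% and 75.8%) at least 1.5-fold lower.

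**Figure D5:**
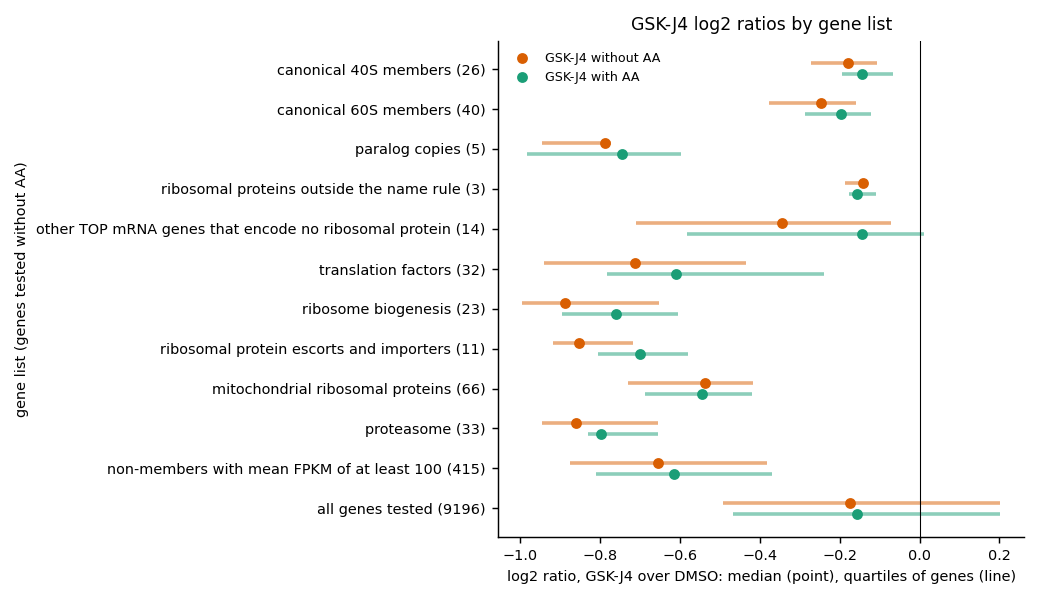
Median log2 ratio of GSK-J4 over DMSO (point) and quartiles over genes (line) for each gene list, without AA (orange) and with AA (green), on the deposited scale, with the number of genes tested without AA in parentheses. The canonical 40S and 60S genes lay between -0.14 and -0.25, the paralog copies, biogenesis genes, escorts and proteasome genes at -0.70 or lower, and scaling the libraries to the same total put the median of all 72 members at 0.15.

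A list of regulators of ribosomal protein mRNAs, which also holds *Mdm2*, had 25 genes with a usable value. Of these 25, 4 were at least 1.5-fold higher in each comparison, a small count, beside 11.6% and 10.1% of all genes. *Ddit4*, an mTORC1 inhibitor, measured 29.4, 279.8, 20.7 and 201 FPKM. *Trib3*, a stress-induced pseudokinase, measured 4.10, 28.2, 7.34 and 34.3 FPKM. *Mdm2* measured 59.7, 217, 54.1 and 195 FPKM. All 3 rose in both comparisons, and the fourth gene was *Sesn2*. At least 1.5-fold lower were 6 genes without AA and 5 with AA (24% and 20%, near the shares of all genes), among them *Tia1*, which binds TOP mRNAs, at 7.03, 1.98, 5.95 and 2.597 FPKM. Whether any of these genes had a part in the levels of ribosomal protein mRNAs was not tested.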

How the data were processed

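RNA-Seq was performed by the authors on 1 library per condition. Per their methods, duplicates were removed from single-end reads, which were aligned with TopHat2 and quantified with Cufflinks2 through Maser; the build was mm10, and TopHat2 and mm10 also stand in the submitters' processing notes. The deposited FPKM values are linear, although their columns are named log10, and each of 2 tables holds 11033 coding sequence groups. The scaling between libraries is not given in the sources used here. Removal of duplicates can lower values of abundant mRNAs, and its part in the ratios of short, abundant mRNAs was not tested. The fold changes, p-values and q-values in the tables are the authors' comparisons and were not used.

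FPKM was summed per gene, genes with any failed estimate were left out, and 1 was added before log2 ratios were formed, for genes that reached an FPKM of 1 in either library (Python 3, pandas). The code was tested on simulated data. Start windows came from RefSeq (GRCm38.p6) and transcripts from GENCODE, 1 principal transcript per gene. Groups came from sample titles. Named genes were those at the ends of the level, GSK-J4, AA and difference rankings, those of the role lists, and up to 4 genes per outside list past 1.5-fold in both GSK-J4 comparisons. *Sesn2*, *Eef2*, *Gnb2l1* and *Fau* and the canonical partners were named besides, and *Rps16* after its values were seen. A few genes are counted but not reported by name here. The members and lists were chosen with earlier results of these data known. Alternatives were other pseudocounts, filters, scalings and thresholds.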

Additional observations from a re-analysis of the deposited data

Results flagged for a closer look

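*Rpl22l1* had log2 ratios of opposite sign for AA in the absence and presence of GSK-J4, -0.14 and 0.21, a difference of 0.35. It measured 215 FPKM in PBS+DMSO, 195 in AA+DMSO, 111 in PBS+GSK-J4 and 128 in AA+GSK-J4. With 1 library per condition, the difference was not tested.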

How the results depend on the processing

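A value was taken to move when a median or log2 ratio shifted by at least 0.1 or changed sign. For a share the limit was 1 percentage point, and for a count a change of over 1.5 times. Scaling decided the direction of the members' medians. For GSK-J4 without AA, where the median was -0.24, it was -0.065 when ratios were centred on their median, 0.046 with upper-quartile scaling and 0.15 with the same total. For GSK-J4 with AA, in place of -0.19, these were -0.031, 0.069 and 0.15. For AA without GSK-J4, the same total gave 0.0063 in place of -0.069. For AA with GSK-J4, centring gave 0.013, upper-quartile scaling 0.012 and the same total 0.017 in place of -0.0061. Among single genes past 1.5-fold in any comparison, 33 log2 ratios moved and 167 did not. All that moved did so under centring, upper-quartile scaling or the same total. *Rpl36al* for AA without GSK-J4 moved by its sign only, from -0.013 to 0.035, 0.034 and 0.062. The members' median minus that of all genes lay between -0.12 and 0.049 without AA and between -0.086 and 0.069 with AA, and was above 0 only when the genes tested had to reach 5 FPKM.

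Of the 4 members at least 1.5-fold lower without AA, 2 were left with upper-quartile scaling, 1 with the same total, 1 at a 2-fold threshold and 0 without paralog copies and *Rps19bp1*. Of the 5 with AA, 3 were left with a pseudocount of 5, 3 with centring, 2 with upper-quartile scaling, 2 with the same total, 1 at a 2-fold threshold and 0 without paralog copies and *Rps19bp1*. The other 95 recomputed medians, counts and shares did not move by these limits. The alternatives for the difference between the GSK-J4 comparisons were chosen after seeing the data. It was 0.05 and lay between 0.0007 and 0.06 under them.

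No paired analysis was possible because each condition has 1 library. With no read counts and no replicates, the precision of a single value cannot be given.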
